A study of Mus musculus with 9 samples.

Results

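Regulatory T cells (Tregs) sorted from the injured mouse heart were compared with Tregs sorted from the spleen of the same model. The comparison holds 6 of the study's 9 RNA sequencing libraries, 3 from the heart and 3 from the spleen, and covers every gene of the count table: 16609 of 49510 genes had enough counts to be tested. All animals were Foxp3-GFP mice, 8 weeks old, in which a green fluorescent protein marks cells that use Foxp3, and both organs were taken 3 days after cardiac ischemia/reperfusion (I/R) injury, where blood flow is stopped and then restored. Every group therefore carried the reporter and the injury, and no uninjured group was given. Cells were enriched on magnetic beads, sorted by flow cytometry into lysis solution, and their RNA was turned into libraries with a kit for very low input. The labels give neither the markers of the sorting gate nor the number of animals behind a library, so p-values speak only of the spread among these samples, which may be technical. The 9 libraries held 156194012 to 267520538 counted reads and 14562 to 18570 detected genes, and the median biological coefficient of variation was 101.5%. Values of the 3 libraries from Tregs of the mediastinal lymph node (MLN), the node of the chest that receives cardiac lymph, are given beside some results.

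Tregs are CD4 T cells that restrain other immune cells. The transcription factor FOXP3 defines the lineage, Helios (Ikzf2) is found in most Tregs made in the thymus, and high CD25 (Il2ra) and CTLA-4 (Ctla4) give them access to IL-2 and to costimulatory ligands. Tregs that enter injured muscle, skin or fat are known for receptors such as ST2 (Il1rl1), for leaving behind the lymph node homing receptor CCR7, and for factors that act on repair. In the injured heart they share the tissue with fibroblasts, vessels, muscle and large numbers of recruited monocytes and macrophages.

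The T cell identity of the libraries was checked first. Foxp3 was measured at 8.77, 38 and 0.24 CPM in the heart and 31.2, 32.6 and 187 CPM in the spleen (libraries 1, 2 and 3 in each). A CPM value is a gene's count per 1000000 counts of its library, with totals scaled by edgeR's TMM factors, and values are listed in the order of libraries 1, 2 and 3 throughout. Heart library 3 was thus close to 0 for the gene that defines the sorted cells, and the organs overlapped (edgeR adjusted p = 0.546). The T cell receptor chain gene Trac was at 620.0, 484 and 295 CPM in the heart and 859, 900.4 and 562 CPM in the spleen, and the CD3 gene Cd3g at 781, 338 and 472 and 714, 1098 and 406 CPM. Both organs overlapped for each of these genes, and heart library 3 carried both of them. Cd4 was at 55.6, 176 and 31.8 CPM against 16.3, 39.4 and 233 CPM, while Cd8a was at 0, 0.0759 and 0 CPM in the heart and 0.0257, 22 and 8.1 CPM in the spleen. The other CD8 chain gene, Cd8b1, was counted in every heart library, at 6.99, 20.9 and 32.3 against 35.2, 164 and 41.2 CPM (edgeR adjusted p = 0.364). Heart library 3 held it at about the level of Cd4. Il2ra (267, 169 and 161 CPM against 245, 383 and 419 CPM) and Ctla4 (363, 552 and 315 against 644, 545 and 926 CPM) overlapped between the organs. Heart library 3 therefore goes against its label for Foxp3 and is called the library labelled heart 3 Treg where a value rests on it. Without it no gene passed the threshold, and the edgeR adjusted p of the 131 genes called with all libraries (0.789% of 16609 tested) lay between 0.078 and 0.178.

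Markers of other cells moved with the organ. Dcn, which fibroblasts make, was at 16297, 2171 and 3797 CPM in the heart libraries and 0.141, 0.17 and 0.238 CPM in the spleen libraries, the endothelial cadherin Cdh5 at 39.1, 36.2 and 13.2 against 0.103, 0 and 0 CPM, and the pericyte gene Rgs5 at 142, 93.5 and 29.9 CPM against no count. Defining genes of heart muscle were close to 0 in part of the heart libraries. Myh6 was at 0, 3.95 and 2.12 CPM in the heart and was not counted in the spleen, and Tnnt2 was at 0.864, 15.5 and 3.2 against 0, 1.06 and 0.56 CPM. Actc1 was at 16.1, 2.72 and 1.5 CPM in the heart against no spleen count and was not called (edgeR adjusted p = 0.114). The monocyte receptor Cd14 was at 260.4, 229.8 and 257 against 3.92, 2.5 and 8.04 CPM. It is not among the chosen cell type markers and was named as an uncalled gene with a low p. Of the chosen macrophage markers, Adgre1, C1qa and Lyz2 lay wholly above the spleen without a call. Csf1r overlapped, at 48.1, 145 and 113 against 12.7, 38.9 and 114 CPM (edgeR adjusted p = 0.928). The mast cell protease Cpa3 separated the heart libraries, at 6444, 3553 and 0 CPM, against 2.45, 1.08 and 0.505 CPM in the spleen. In the other direction, the B cell genes Cd79a (1.93, 0.212 and 0 CPM against 539, 710.2 and 505 CPM) and Igkc (11.6, 1.34 and 68.6 against 4976, 9429 and 3208 CPM) and the red cell gene Hbb-bs (0.314, 1.21 and 1.51 against 61.2, 21.6 and 10.8 CPM) lay higher in each spleen library than in any heart library. The summed level of a marker list is given below beside the genes it moves with, and its part in those results was not tested. In bulk libraries fewer cells of a type and less RNA per cell cannot be told apart.

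**Figure D1:**
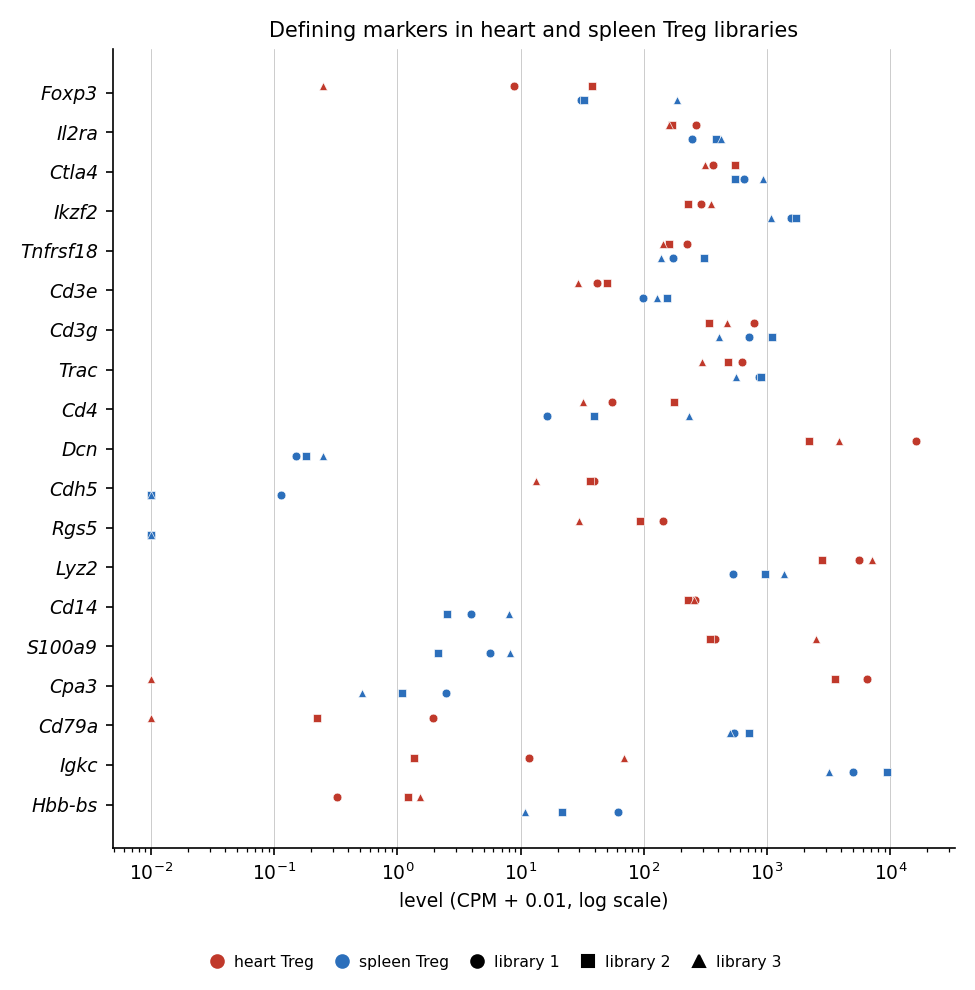
Level of 19 marker genes in each heart and spleen Treg library, in CPM plus 0.01 on a log axis, with 1 point per library and the library number as the shape. Cd14 is shown though it is not a chosen cell type marker, and the overlapping macrophage marker Csf1r is not shown. T cell genes overlap between the organs in most cases, Foxp3 is at 0.24 CPM in heart library 3, and genes of fibroblasts, vessels, monocytes and B cells lie apart.

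Of 16609 genes tested, 131 (0.789%) were called, at a Benjamini-Hochberg adjusted p under 0.05 from edgeR's quasi-likelihood test. Heart levels were higher for 102 (0.614%) and lower for 29 (0.175%). Without a filter on size, all 3 heart libraries lay above all 3 spleen libraries in 2058 genes (12.4%) and below them in 1146 (6.9%). The calls rest on every library of both organs: 10 genes were called without heart library 1, 4 of them among the 131, and 2 without heart library 2, both among the 131. Without heart library 3, spleen library 1 and spleen library 2 it was 0 each, and without spleen library 3 it was 1, a gene outside the 131. In the 3 fits with 0 calls, 2183, 2107 and 2067 genes had an unadjusted p under 0.05 and the lowest edgeR adjusted p was 0.078, 0.0716 and 0.0658. Leaving out MLN libraries 1, 2 and 3, which inform the filter, the scaling and the spread, gave 84, 90 and 122 calls, of which 74, 77 and 98 were among the 131. All 131 genes kept their direction in each of these 9 fits and in the 10 other settings tried. Among those settings the number called ran from 0, with a replicate block, to 2415. The libraries of all 131 did not overlap between the organs, so leaving out 1 library could hardly reverse a direction. Other tools called more genes, limma-voom 957 higher (5.76%) and 184 lower (1.11%), and DESeq2 1704 higher (9.77% of 17433) and 711 lower (4.08%), and both lists held all 131.

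Called genes were mostly present in 1 organ only. Of the 102 higher genes, 68 had no count in any spleen library, 27 had counts in all 6 libraries and 7 lay between, and all 102 encode proteins. Of the 29 lower genes, 21 had no count in any heart library, 7 had counts in all 6 and 1 lay between. The lower genes include 19 that encode proteins, 6 antibody gene segments, 3 antisense genes and 1 long noncoding RNA, and 9 of the 29 bear only clone or model names. Antisense genes are uncertain, since the use of strand in counting is not stated. In the MLN, 56 of the 102 higher genes also had no count, and all 29 lower genes had a higher mean than in the heart. Heart library 1 was the highest of the 3 for 52 of the 102 and heart library 2 the lowest for 46.

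**Figure D2:**
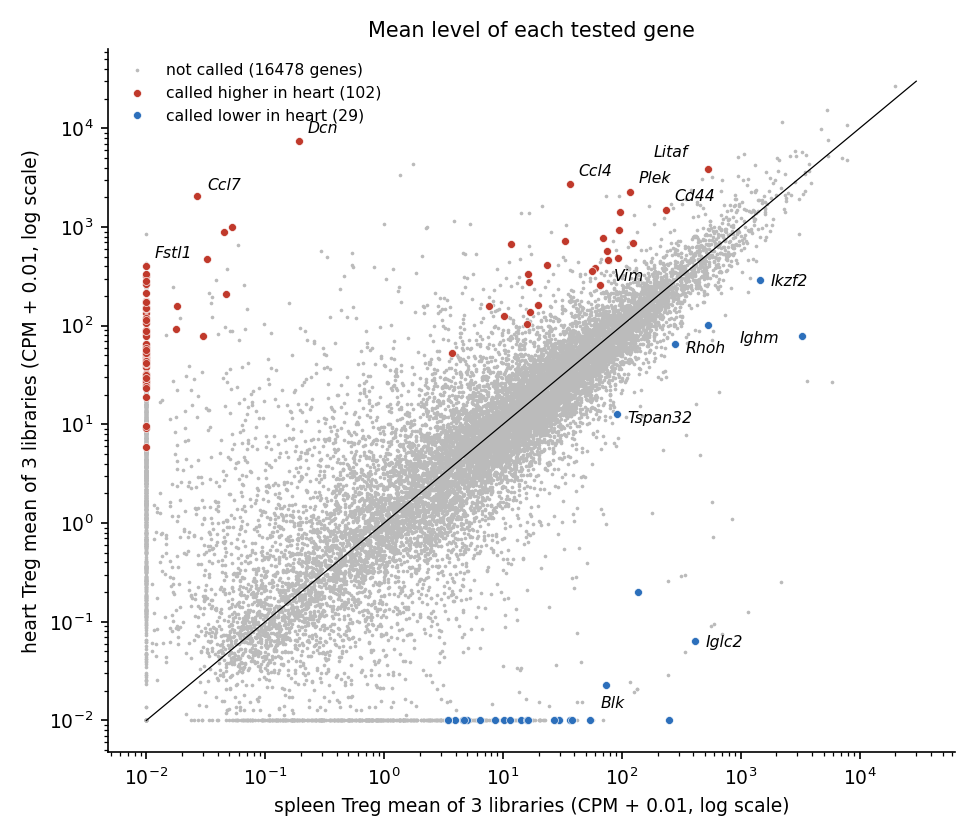
Mean level of each of the 16609 tested genes in the 3 spleen Treg libraries (x axis) and the 3 heart Treg libraries (y axis), in CPM plus 0.01 on log axes, with equality as a line. The 102 genes called higher in the heart lie mostly on the left edge, where the spleen has no count, and the 29 called lower mostly on the bottom edge.

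Among genes counted in every library, Vim, Ahnak, Cdkn1a, Litaf, Picalm and Card19 were higher in the libraries labelled heart Treg, with every heart library above every spleen library. In the same libraries the recruited monocyte and macrophage list summed to 15304 to 41728 CPM in the heart and 5397 to 6977 CPM in the spleen, and its part in these genes was not tested. Vim, the intermediate filament vimentin, was at 448, 558 and 455 CPM in heart libraries 1 to 3 and 93.4, 81.8 and 101 CPM in spleen libraries 1 to 3. It rose 5.28-fold (log2 2.40, SE 0.29, edgeR adjusted p = 0.0238; ENSMUSG00000026728, chromosome 2, 13573927 to 13582826), with libraries of an organ within a narrow range. Here and below log2 is the fitted heart minus spleen difference with its standard error (SE). Ahnak, a very large membrane scaffold protein, was at 344, 572 and 459.9 against 74, 85.1 and 72.2 CPM and rose 5.95-fold (edgeR adjusted p = 0.0256). Cdkn1a, which encodes the cell cycle inhibitor p21, was at 228, 385 and 221 against 12.6, 22.7 and 14.1 CPM and rose 16.9-fold (log2 4.08, SE 0.50, edgeR adjusted p = 0.0238; ENSMUSG00000023067, chromosome 17, 29090976 to 29100727). Litaf, a lysosomal membrane protein named for its induction by lipopolysaccharide, was at 3483, 4616 and 3475 against 509, 670.4 and 407 CPM (edgeR adjusted p = 0.0238). Picalm, a clathrin adaptor of endocytosis, was at 238, 281 and 264 against 65.3, 75.6 and 56.4 CPM and rose 3.97-fold (edgeR adjusted p = 0.0374). These 5 genes share a small spread among the heart libraries and are well above the floor of detection in each spleen library. Card19, a mitochondrial protein with a caspase recruitment domain, was at 370.3, 252 and 534 against 39.3, 83.6 and 55.2 CPM (edgeR adjusted p = 0.0398).

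Pleckstrin (Plek), a protein kinase C substrate of platelets, macrophages and activated lymphocytes, was at a similar level in all heart libraries. Its levels were 2109, 2298 and 2428 CPM in the heart and 74.6, 133 and 144 CPM in the spleen, 19.4-fold higher (log2 4.28, SE 0.49, edgeR adjusted p = 0.0238; ENSMUSG00000020120, chromosome 11, 16971206 to 17052381). MLN libraries were at 164, 57.6 and 105 CPM, all far below the heart. Id3, an inhibitor of E-protein transcription factors, was at 175, 59.1 and 139 against 13.2, 6.66 and 10.5 CPM (edgeR adjusted p = 0.0374). Hk2, the inducible hexokinase, was at 168, 97 and 145 against 14.7, 25.8 and 10.6 CPM and rose 8.02-fold (edgeR adjusted p = 0.0398). Ifitm2, an interferon-induced membrane protein that blocks virus entry, was at 997, 326 and 1006 against 59.5, 95.6 and 55.2 CPM (edgeR adjusted p = 0.0398). The secreted ribonuclease gene Rnase4 was at 298, 65.4 and 112 against 12.1, 5.93 and 4.89 CPM, 20.7-fold higher, and 11.6-fold without heart library 1, its highest (edgeR adjusted p = 0.0398). Heart library 2 was the lowest heart library for Id3, Hk2, Ifitm2 and Rnase4, and all 4 stayed apart from the spleen. The next 4 genes, Zeb2, Ccr2, Rab20 and Ctnna1, were also called with counts in all 6 libraries. They are not given by the naming rule and were picked with their values in view. Zeb2, a zinc finger repressor of effector lymphocytes and myeloid cells, was at 52.4, 36.6 and 69.7 against 5.49, 2.97 and 2.68 CPM (edgeR adjusted p = 0.0455). Ccr2, the receptor for CCL2, was at 126, 109 and 73.4 against 12.2, 19.9 and 15.5 CPM, 6.49-fold higher (edgeR adjusted p = 0.0398). Rab20, a small GTPase of phagosomes, was at 259, 425 and 399 against 39.6, 73 and 55.4 CPM (edgeR adjusted p = 0.0444). Ctnna1, which encodes alpha-catenin, was at 788, 577 and 705 against 114, 145 and 110.0 CPM (edgeR adjusted p = 0.0398). In all 4 the lowest heart library was several times the highest spleen library. In the same libraries the recruited monocyte and macrophage list, which holds Ccr2, summed to 15304 to 41728 CPM in the heart and 5397 to 6977 CPM in the spleen. The megakaryocyte and platelet list summed to 342 to 614 and 5.75 to 31.3 CPM. Of its 7 tested genes 2 lay wholly above the spleen and 5 overlapped, against 12.4% of all tested genes wholly above. The part of either list in the genes of this paragraph was not tested.

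Genes that fell in the heart with counts in all 6 libraries were led by lymphocyte genes. Tspan32, a tetraspanin of blood cells, was at 10.3, 15.2 and 12.3 CPM in the heart libraries and 76.1, 85.6 and 113 CPM in the spleen libraries. This 7.26-fold difference (log2 -2.86, SE 0.35, edgeR adjusted p = 0.0238; ENSMUSG00000000244, chromosome 7, 143005046 to 143019644) left a wide gap between the organs, and the MLN was at 94.8, 119.9 and 115 CPM. Rhoh, a GTPase-deficient small G protein needed for T cell receptor signalling, fell 4.32-fold, from 250.0, 239 and 352 CPM in the spleen to 73.2, 71.7 and 49.7 CPM in the heart (log2 -2.11, SE 0.32, edgeR adjusted p = 0.0374; ENSMUSG00000029204, chromosome 5, 65861213 to 65896700). Rabgap1l, a GTPase-activating protein of membrane traffic, fell 5.23-fold, from 519.6, 763 and 324 to 124, 95.6 and 87.1 CPM (edgeR adjusted p = 0.0398). MLN levels of Rhoh (401, 405 and 334 CPM) and Rabgap1l (454, 389.9 and 508 CPM) were all above those of the heart. Ikzf2 was at 293, 229 and 350.1 CPM in the heart against 1551, 1709.6 and 1077 CPM in the spleen. It fell 4.97-fold without overlap (log2 -2.31, SE 0.41, edgeR adjusted p = 0.0492; ENSMUSG00000025997, chromosome 1, 69531214 to 69687245), and the MLN was at 1998, 2093 and 936 CPM. The antibody genes Ighm, Iglc1 and Iglv1 complete this group and are described with the B cell genes. In the same libraries Cd3g and Trac, given above, overlapped, while Cd3e lay wholly below the spleen, at 41.9, 50.1 and 29.3 against 97.8, 155 and 127 CPM. The T cell receptor list summed to 4887 to 7043 CPM in the heart and 9777 to 13125 CPM in the spleen, and its part in these genes was not tested.

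**Figure D3:**
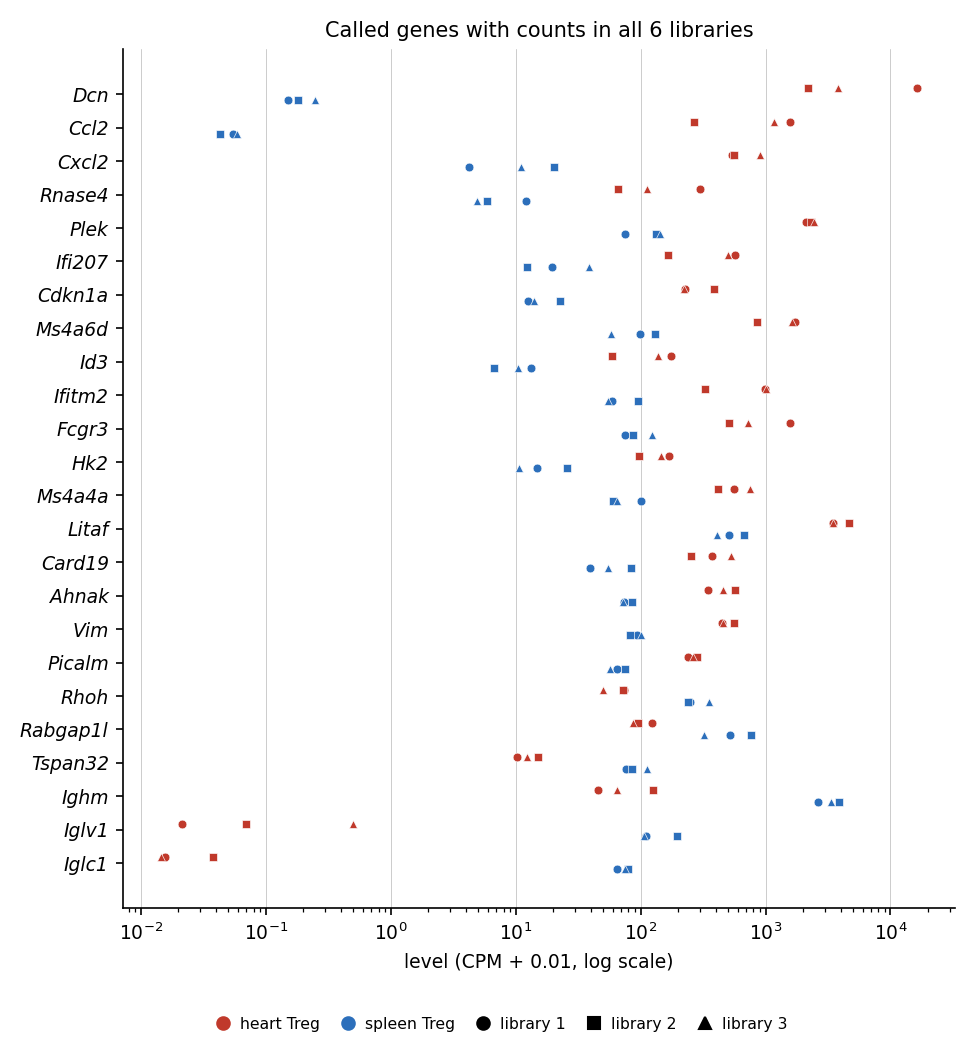
Level in each library of the 24 called genes named by rule among those with counts in all 6 libraries, in CPM plus 0.01 on a log axis, ordered by log2 difference, with the library number as the shape. For each gene the 3 heart points lie on 1 side of the 3 spleen points, and Dcn, Ccl2, Iglv1 and Iglc1 are near the floor in 1 organ.

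Chemokines are secreted proteins that draw leukocytes along gradients, and several of them were far higher in the heart libraries. Of 32 chemokine genes tested of 33 listed, 7 rose and 0 fell, and in 21 all heart libraries lay above all spleen libraries, against 0.614% of all tested genes called higher and 12.4% wholly above the spleen. These shares, with 0.175% called lower and 6.9% wholly below, are the background for every list below. The list's median log2 difference was 5.38, with members lacking spleen counts at their lower bound, against 0.02 over all tested genes. Because a gene counted in 1 organ passes the filter through that organ alone, counts and medians of lists with such members are descriptions and support nothing. In the same libraries the summed level of 25 recruited monocyte and macrophage genes was 15304 to 41728 CPM in the heart and 5397 to 6977 CPM in the spleen, and its part in the chemokine result was not tested. That list shares Ccl2, Ccl7, Ccl12, Cxcl2 and Cxcl3 with the chemokines.

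The called CC chemokines of the monocyte-attracting cluster lie side by side on chromosome 11. Ccl2, Ccl7, Ccl11, Ccl12 and Ccl8 follow each other within 81229 bases, and all but Ccl11 were called. Ccl2, the main ligand of CCR2, was at 1558, 267 and 1176 CPM in the heart libraries and 0.045, 0.0331 and 0.0484 CPM in the spleen libraries (edgeR adjusted p = 0.0374; ENSMUSG00000035385, chromosome 11, 82035571 to 82037453). Ccl7, another CCR2 ligand, was at 4982, 331 and 882 against 0.0321, 0 and 0.0173 CPM (edgeR adjusted p = 0.0374). Ccl12, a mouse CCR2 ligand, was at 714, 89.8 and 613 against 0.0386, 0.0283 and 0 CPM (edgeR adjusted p = 0.0398). Heart library 2 was the lowest of the heart for all 3. Ccl8, a CCR8 ligand in the mouse, was at 368, 32.9 and 591 CPM against no count, at least 22635-fold higher with an empty spleen library set at 3 counts, and at least 13712-fold without the library labelled heart 3 Treg (edgeR adjusted p = 0.0379). Ccl11, the eosinophil attractant eotaxin between them, was at 202, 18.1 and 182 CPM against no count and missed the threshold (edgeR adjusted p = 0.0546). MLN libraries held 0.365, 0.216 and 8.16 CPM of Ccl2 and 0.941, 10.9 and 5.28 CPM of Ccl8, more than the spleen and less than the heart.

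The promoters of 2 of these neighbours and of Cxcl2, all called higher in the heart, are shown. Each is the 150 bases before the annotated start on the plus strand in RefSeq's GRCm38.p6 sequence, 5′ to 3′, with capitals for matches on either strand to TATAAA, to the AP-1 letters TGANTCA and to the NF-kB consensus. Entries were found for 4 of the 7 called chemokine genes (Ccl8, Ccl12, Cxcl2 and Cxcl14). The windows are chr11:82101695-82101844 for Ccl12, chr11:82115035-82115184 for Ccl8 and chr5:90903721-90903870 for Cxcl2.
Ccl12: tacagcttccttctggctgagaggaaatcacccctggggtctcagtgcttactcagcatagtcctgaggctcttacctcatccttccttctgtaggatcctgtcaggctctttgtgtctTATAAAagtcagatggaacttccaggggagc
Ccl8: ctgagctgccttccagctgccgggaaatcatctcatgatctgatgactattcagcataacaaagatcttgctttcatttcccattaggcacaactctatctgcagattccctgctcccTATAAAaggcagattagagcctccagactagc
Cxcl2: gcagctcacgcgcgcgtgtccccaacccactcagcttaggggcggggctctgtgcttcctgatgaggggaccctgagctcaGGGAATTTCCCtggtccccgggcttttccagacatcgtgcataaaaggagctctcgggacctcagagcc
Ccl12 holds TATAAA at bases -31 to -26 and Ccl8 at bases -32 to -27 before the start, a match found in 7.58% of 32817 promoter windows of this length. In Cxcl2 the capitals cover an NF-kB consensus match on each strand, at bases -69 to -60 and -68 to -59, overlapping, a motif with a match in 4.6% of windows. The AP-1 letters TGANTCA, present in 4.24% of windows, had no match in these 3 or in Cxcl14. A match describes letters and is not a measured binding site.

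Cxcl2, a neutrophil attractant, was at 535, 563 and 907 CPM in the heart and 4.24, 20.1 and 11 CPM in the spleen and rose 56.7-fold (log2 5.83, SE 0.94, edgeR adjusted p = 0.0398; ENSMUSG00000058427, chromosome 5, 90903871 to 90905938). Its 3 heart levels were close to each other, and without spleen library 2, its highest, the difference was 89.0-fold. The stromal chemokine gene Cxcl14 was at 50.5, 22.5 and 18.3 CPM against no count (at least 2083-fold, edgeR adjusted p = 0.0456). Ccl4, a chemokine of macrophages and activated T cells, was at 4146, 826 and 3183 against 10.2, 75 and 24.2 CPM, 74.6-fold higher, and 162-fold without spleen library 2 (edgeR adjusted p = 0.0492). Among chemokines that were not called, Ccl6 was at 883, 589 and 1696 against 37.7, 37.4 and 26 CPM (edgeR adjusted p = 0.0602) and did not overlap. Ccl5, which T cells themselves make, was at 2491, 440.2 and 2058 against 265, 1012 and 75.9 CPM and did overlap (edgeR adjusted p = 0.583). Ccl1, a CCR8 ligand of activated T cells, was at 796, 179 and 407 against 59.8, 39.5 and 0 CPM with all heart libraries above the spleen (edgeR adjusted p = 0.816).

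A pair of other gene clusters gave mixed calls. On chromosome 19, a stretch cut at the called genes Ms4a4a and Ms4a6d spans 229327 bases of genes for four-pass membrane proteins of leukocytes. Ms4a6d was at 1733, 858 and 1625 CPM in the heart and 98.7, 130.2 and 58.4 CPM in the spleen and rose 14.7-fold (log2 3.88, SE 0.51, edgeR adjusted p = 0.0278). Ms4a4a was at 562, 414 and 749 against 101, 60.1 and 64.2 CPM and rose 7.66-fold (edgeR adjusted p = 0.0278). Between them Ms4a4b, a gene of T cells, was at 1903, 1144 and 3239.7 against 3443, 1459.6 and 1061 CPM. Ms4a6b was at 1007, 368 and 1267 against 1488, 920.0 and 515 CPM, and the organs overlapped for both. In the same interval Ms4a6c (1033, 503 and 1668 against 236, 156 and 163 CPM) and Ms4a4d (748, 56 and 332 against 2.91, 17.3 and 6.61 CPM) lay wholly above the spleen without a call (edgeR adjusted p = 0.0721 and 0.313). The Ifi200 family on chromosome 1 encodes interferon-induced DNA-binding proteins. Ifi207 was at 567, 165 and 504 against 19.6, 12.2 and 38.6 CPM (edgeR adjusted p = 0.0398) and rose 17.6-fold. The stretch from Ifi207 to Ifi205, cut at these called genes, spans 308384 bases. Ifi205 was at 1321, 215 and 646 against 47.4, 22.9 and 29 CPM, 22-fold higher, and 13.02-fold without heart library 1 (edgeR adjusted p = 0.0415). Mndal (89.7, 64.5 and 106 against 168, 76.9 and 77.8 CPM) and Ifi203 (179, 105 and 268 against 328, 96.3 and 135 CPM) between them overlapped. Ifi204 (378, 188 and 447 against 93.4, 14.3 and 40.6 CPM) and Ifi211 (1118, 344 and 717 against 159.8, 17.1 and 75.1 CPM), also between them, lay wholly above the spleen and were not called (edgeR adjusted p = 0.114 and 0.115). Members of the Ifi200 family share near-identical stretches, so the split of reads among them is uncertain.

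**Figure D4:**
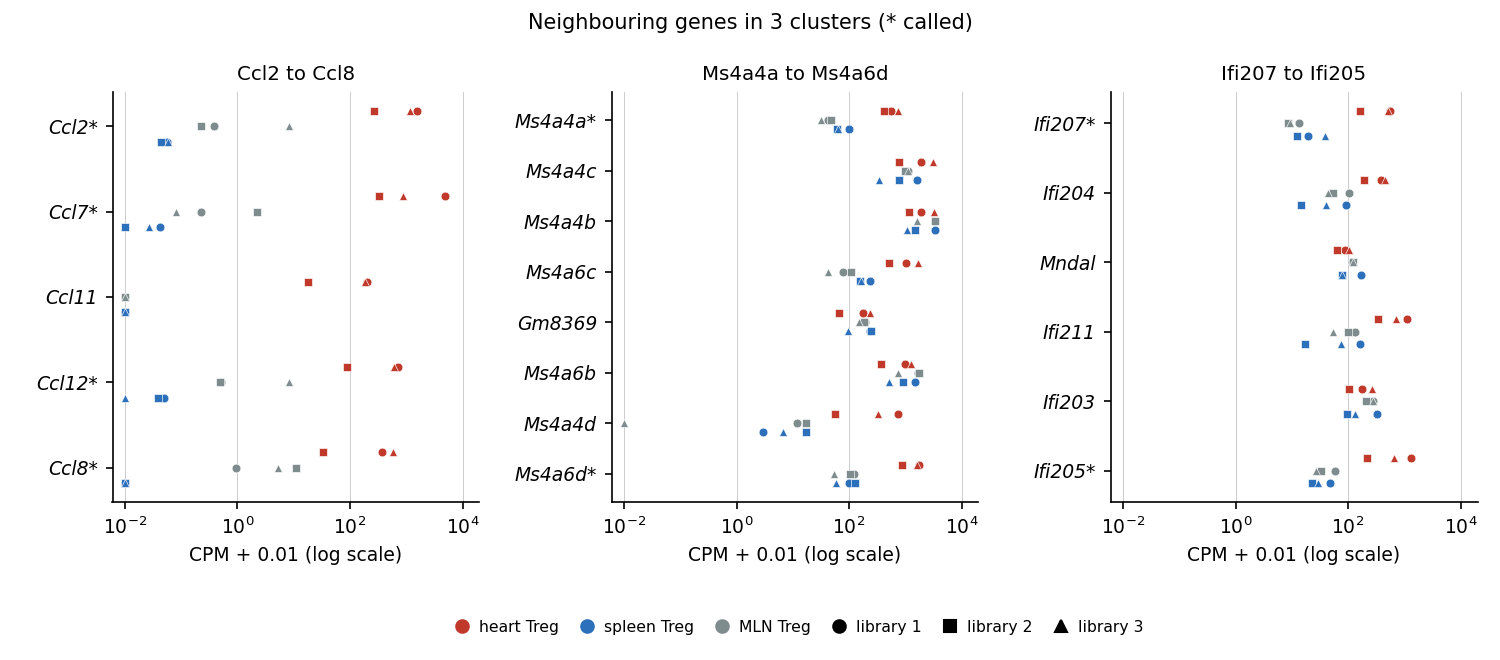
Level of neighbouring genes in 3 clusters, in chromosome order from top to bottom, in CPM plus 0.01 on a log axis, for each heart, spleen and MLN Treg library. Each stretch was cut so that called genes (star) stand at its ends. In the Ccl2 to Ccl8 cluster all 5 genes lie apart between heart and spleen. In the other clusters the genes between the ends include both overlapping ones and, uncalled, Ms4a6c, Ms4a4d, Ifi204 and Ifi211 wholly above the spleen.

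Receptors and enzymes of myeloid cells were higher in the same heart libraries. Fcgr3, the low-affinity IgG receptor of macrophages and neutrophils, was at 1561, 514 and 729 CPM in the heart and 75.3, 87.2 and 124 CPM in the spleen, 9.81-fold higher, and 6.53-fold without heart library 1 (log2 3.29, SE 0.51, edgeR adjusted p = 0.0398; ENSMUSG00000059498, chromosome 1, 171051174 to 171064935). The list of recruited monocyte and macrophage genes had 25 members, all tested, of which 7 rose, 0 fell and 20 lay wholly above the spleen, with a median log2 difference of 3.16. Over all tested genes 0.614% were called higher and 12.4% lay wholly above. The called members are the chemokines Ccl2, Ccl7, Ccl12 and Cxcl2 with Ccr2, Fcgr3 and Cd68. Cd68, a lysosomal glycoprotein of macrophages, was at 282, 101 and 108 against 13.6, 25 and 20.0 CPM, 8.39-fold higher, and 5.36-fold without heart library 1 (edgeR adjusted p = 0.0492). Plac8, a gene of monocytes and lymphocytes, was at 3543, 2180.4 and 9174 against 3379.5, 1865 and 772 CPM and overlapped (edgeR adjusted p = 0.468). Fcer1g, a signalling chain of Fc receptors, was at 4328, 958 and 3859 against 478, 602 and 346 CPM without overlap (edgeR adjusted p = 0.0704). Lyz2, the lysozyme of monocytes and macrophages, was at 5589, 2802 and 7107 against 529, 969 and 1363 CPM, again apart and not called (edgeR adjusted p = 0.0958). Each spleen library thus held these transcripts too. Among 23 tissue-resident macrophage genes, Ccl8 alone was called and 17 lay wholly above the spleen. The complement subunit C1qb was at 1813, 1044 and 1833 against 179, 224 and 409 CPM, and F4/80 (Adgre1) at 540.1, 657 and 549 against 131, 0 and 308 CPM. The list sums to 4024 to 6752 CPM in the heart and 474 to 1188 CPM in the spleen.

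Genes of macrophages that clear debris and handle lipid had 2 of 25 tested members called, both higher, with 22 wholly above and 1 wholly below the spleen (median log2 3.36). The lysosomal protease Ctsl was at 617, 148 and 246 against 12, 15.8 and 21.2 CPM, 20.6-fold higher, and 12.1-fold without heart library 1 (edgeR adjusted p = 0.0469). Trem2, a lipid receptor of such macrophages, was at 41.2, 20.9 and 28.9 CPM against no count (at least 2076-fold, edgeR adjusted p = 0.0408). The protease Ctss was at 21079, 7443 and 17979 against 6329, 4882 and 4717 CPM, apart but not called (edgeR adjusted p = 0.134). So was osteopontin (Spp1), at 9189, 816 and 2948 against 5.14, 0 and 0.117 CPM, lowest in heart library 2 (edgeR adjusted p = 0.132). The 1 member wholly below the spleen was Cd5l, a secreted protein of spleen macrophages, at 0, 0.104 and 4.11 against 9.7, 20.0 and 96.9 CPM.

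Complement genes, a cascade of plasma proteins that tags and lyses targets, gave 0 edgeR calls among 23, with 13 at an unadjusted p under 0.05, 12 higher and 1 lower called by limma-voom and 8 higher and 2 lower by DESeq2. In 16 of them all heart libraries lay above the spleen (median log2 4.15). The C1 inhibitor gene Serping1, which restrains the start of the cascade, was at 801, 304 and 80.1 against 0, 0 and 2.44 CPM (edgeR adjusted p = 0.217). Neutrophil genes gave 0 edgeR calls among 14, with 6 at an unadjusted p under 0.05, 5 higher by limma-voom and 7 higher by DESeq2. Their subunit of calprotectin, S100a8, was at 315, 226 and 1071 against 6.72, 2.38 and 8.79 CPM, highest in the library labelled heart 3 Treg. Its partner S100a9 was at 378, 344 and 2477 against 5.67, 2.14 and 8.17 CPM, also highest there.

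Fibrillar collagens are the tensile fibres of scar and are built by fibroblasts, and 13 of the 27 genes of this list that were tested had no count in any spleen library. In the list 4 rose, 0 fell and 23 lay wholly above the spleen (median log2 9.46, with members lacking spleen counts at their bound). Over all tested genes 0.614% were called higher and 12.4% lay wholly above. The propeptide protease Adamts2 was at 74.9, 75.2 and 39.5 CPM in the heart, against none (at least 4327-fold, edgeR adjusted p = 0.0323). The collagen chains Col5a1 (109, 42.4 and 28.2 CPM) and Col5a2 (326, 47.2 and 79.8 CPM) and the cross-linking oxidase Loxl1 (89.8, 34.7 and 31.4 CPM) also lacked spleen counts (edgeR adjusted p = 0.0398, 0.0456 and 0.0398). Chains of type I and III collagen were not called. Col3a1 was at 703, 103 and 157 against 0, 0 and 1.36 CPM and Col1a2 at 232, 50.6 and 88.1 against 0.0193, 0 and 0.0587 CPM, both without overlap (edgeR adjusted p = 0.147 and 0.129). Heart library 1 was the highest for each of Col5a1, Col5a2, Loxl1, Col3a1 and Col1a2. The fibroblast identity list sums to 2469.6 to 7170.4 CPM in the heart and 27.6 to 115 CPM in the spleen.

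Dcn, the proteoglycan decorin that coats collagen fibrils, had the lowest p of all genes (log2 15.30, SE 1.32, edgeR adjusted p = 0.0238; ENSMUSG00000019929, chromosome 10, 97479609 to 97518143). Its heart mean of 7422 ± 7729 CPM (SD, n = 3) rests on heart library 1, which held more than the other heart libraries together. Without that library log2 was 13.98, and Dcn stayed called (edgeR adjusted p = 0.00691). Bgn, the related biglycan, was at 173, 69.5 and 36.2 CPM against 0, 0.0236 and 0 CPM (edgeR adjusted p = 0.0442). Of 14 proteoglycan genes, 2 rose, and Lum (lumican, 1385, 49.1 and 189 against 1.54, 0.0331 and 0 CPM, edgeR adjusted p = 0.184) had the order of the heart libraries seen for Dcn, without a call. Matricellular proteins, which bind the matrix and signal to cells without forming fibres, gave 3 calls among 18 tested of 24 listed, and 15 lay wholly above the spleen. Smoc2, a calcium-binding matrix protein, was at 402, 233 and 162 CPM with no spleen count (at least 18189-fold, edgeR adjusted p = 0.0238). Fstl1, a secreted follistatin relative, was at 873, 115 and 211 CPM against none (at least 27354-fold, and at least 11153-fold without heart library 1, edgeR adjusted p = 0.0444). Periostin (Postn), typical of activated fibroblasts, was at 342, 20.5 and 107 against 0, 0 and 0.0242 CPM (edgeR adjusted p = 0.0484). Heart library 1 was the highest for these 3 as it was for Dcn, Bgn and Lum. Thrombospondin 1 (Thbs1), at 218, 427 and 853 against 0.0321, 0.0283 and 0.902 CPM, was highest in the library labelled heart 3 Treg and not called (edgeR adjusted p = 0.106).

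The basement membrane is a thin sheet under vessels and around muscle cells, and elastic fibres give tissue its recoil. In the basement membrane list 2 of 19 tested genes rose, the collagen chain Col4a2 (255, 359 and 33.2 CPM, edgeR adjusted p = 0.0485) and the laminin chain Lama4 (101, 43.7 and 37.4 CPM, edgeR adjusted p = 0.0374), both without spleen counts. Heart library 3 was the lowest for both. Lamc1, the common laminin gamma chain, was counted everywhere, at 95.4, 132 and 110.4 against 41.5, 14.1 and 23.9 CPM (edgeR adjusted p = 0.092). Elastic fibre genes gave 2 calls among 16, Fbln1 (60.9, 118 and 69.2 CPM, edgeR adjusted p = 0.0278) and Efemp1 (258, 102 and 99.3 CPM, edgeR adjusted p = 0.0295), again with no spleen count. Of 26 matrix proteases and inhibitors, 1 rose: stromelysin 1 (Mmp3) at 261, 125 and 132 CPM against none (at least 11813-fold, edgeR adjusted p = 0.0398). The inhibitor Timp1 was at 2225, 74.3 and 231 CPM against none and missed the threshold (edgeR adjusted p = 0.0864). Cd44, the receptor for the matrix sugar hyaluronan on activated T cells and on macrophages, was the only call among 10 hyaluronan genes, at 977, 1493 and 2014 against 177, 211 and 323 CPM, and was counted in every library. The genes of the hyaluronan synthases Has1 and Has2 had too few counts to test.

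Markers of fibroblasts, the cells that make most of this matrix, had 5 calls among 21 tested, Fbln1 included. Abca8a, a lipid transporter, was at 210.2, 113 and 210.4 CPM against none (at least 12188-fold, edgeR adjusted p = 0.0238). Dpep1, a membrane dipeptidase, was at 258, 187 and 60.0 CPM and Pdgfrl at 115, 90.5 and 30.5 CPM, both against none (edgeR adjusted p = 0.0374 and 0.0374). Mgp, an inhibitor of calcification, was at 2019, 148 and 491 against 0, 0.0567 and 0.0484 CPM, with heart library 1 far above the others (edgeR adjusted p = 0.0398). The receptor Pdgfra, used to define fibroblasts, was at 4.05, 1.37 and 4.7 against 0.103, 0 and 0 CPM. Outside the lists, Srpx was at 261, 193 and 78.6 CPM against none (at least 12161-fold, edgeR adjusted p = 0.0295), and Plac9b, which has a near-identical copy, at 381, 42.5 and 98 CPM against none (edgeR adjusted p = 0.0465).

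Endothelial cells line vessels and pericytes wrap them. Vessel genes gave 2 calls among 21: Ptprb, a phosphatase of endothelial junctions, at 47.9, 63.2 and 29 CPM and Gpihbp1, which anchors lipoprotein lipase in capillaries, at 80.7, 17.4 and 28.9 CPM, both without spleen counts (edgeR adjusted p = 0.0374 and 0.0456). Pecam1, which T cells and myeloid cells also make, overlapped, at 249.9, 174 and 183 against 87.6, 119 and 216 CPM. The list sums to 1163 to 3007 CPM in the heart and 273 to 306 CPM in the spleen. Pericyte and smooth muscle genes had 1 call among 9, Rgs5 (edgeR adjusted p = 0.0398), a regulator of G protein signalling, with the values given above. Smooth muscle actin (Acta2) was at 85.8, 37.3 and 5.8 CPM against none (edgeR adjusted p = 0.0692) and the list sums to 80.7 to 329 CPM in the heart and 0 to 0.368 CPM in the spleen. Nerve-associated genes gave 1 call among 16, the adhesion molecule Cadm2 at 108, 362 and 485 CPM against none (at least 21798-fold, edgeR adjusted p = 0.037). The sodium channel Scn7a was at 845, 479.9 and 639 against 0, 0.146 and 0 CPM and the myelin gene Pmp22 at 395, 231 and 242 against 0, 0.085 and 0 CPM, neither called (edgeR adjusted p = 0.0644 and 0.0517).

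Muscle genes, of the sarcomere and of its energy supply, gave 3 calls among 34 tested. Myl2, the ventricular myosin light chain, was at 24.6, 22.9 and 47.5 CPM against none (edgeR adjusted p = 0.0415). Fabp3, the heart fatty acid binding protein, was at 67.3, 43.8 and 77.6 CPM against none (edgeR adjusted p = 0.0295). Mb, the oxygen store myoglobin, was at 61, 110.3 and 345 CPM against none (at least 11786-fold, and at least 5865-fold without the library labelled heart 3 Treg, edgeR adjusted p = 0.0398). Both Myl2 and Mb were highest in the library labelled heart 3 Treg. Actn2 was at 172, 56.7 and 21.5 against 12.8, 47 and 9.74 CPM and overlapped, and Atp2a2, a calcium pump used by many cells, was at 61.7, 151 and 80.4 against 73.5, 28.1 and 52.3 CPM. Cd36, a fatty acid receptor of endothelium and macrophages, was at 6954, 1152 and 1421 against 332, 279 and 101 CPM without overlap (edgeR adjusted p = 0.0774). The sarcomere list sums to 302 to 447 CPM in the heart and 110.4 to 184 CPM in the spleen.

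**Figure D5:**
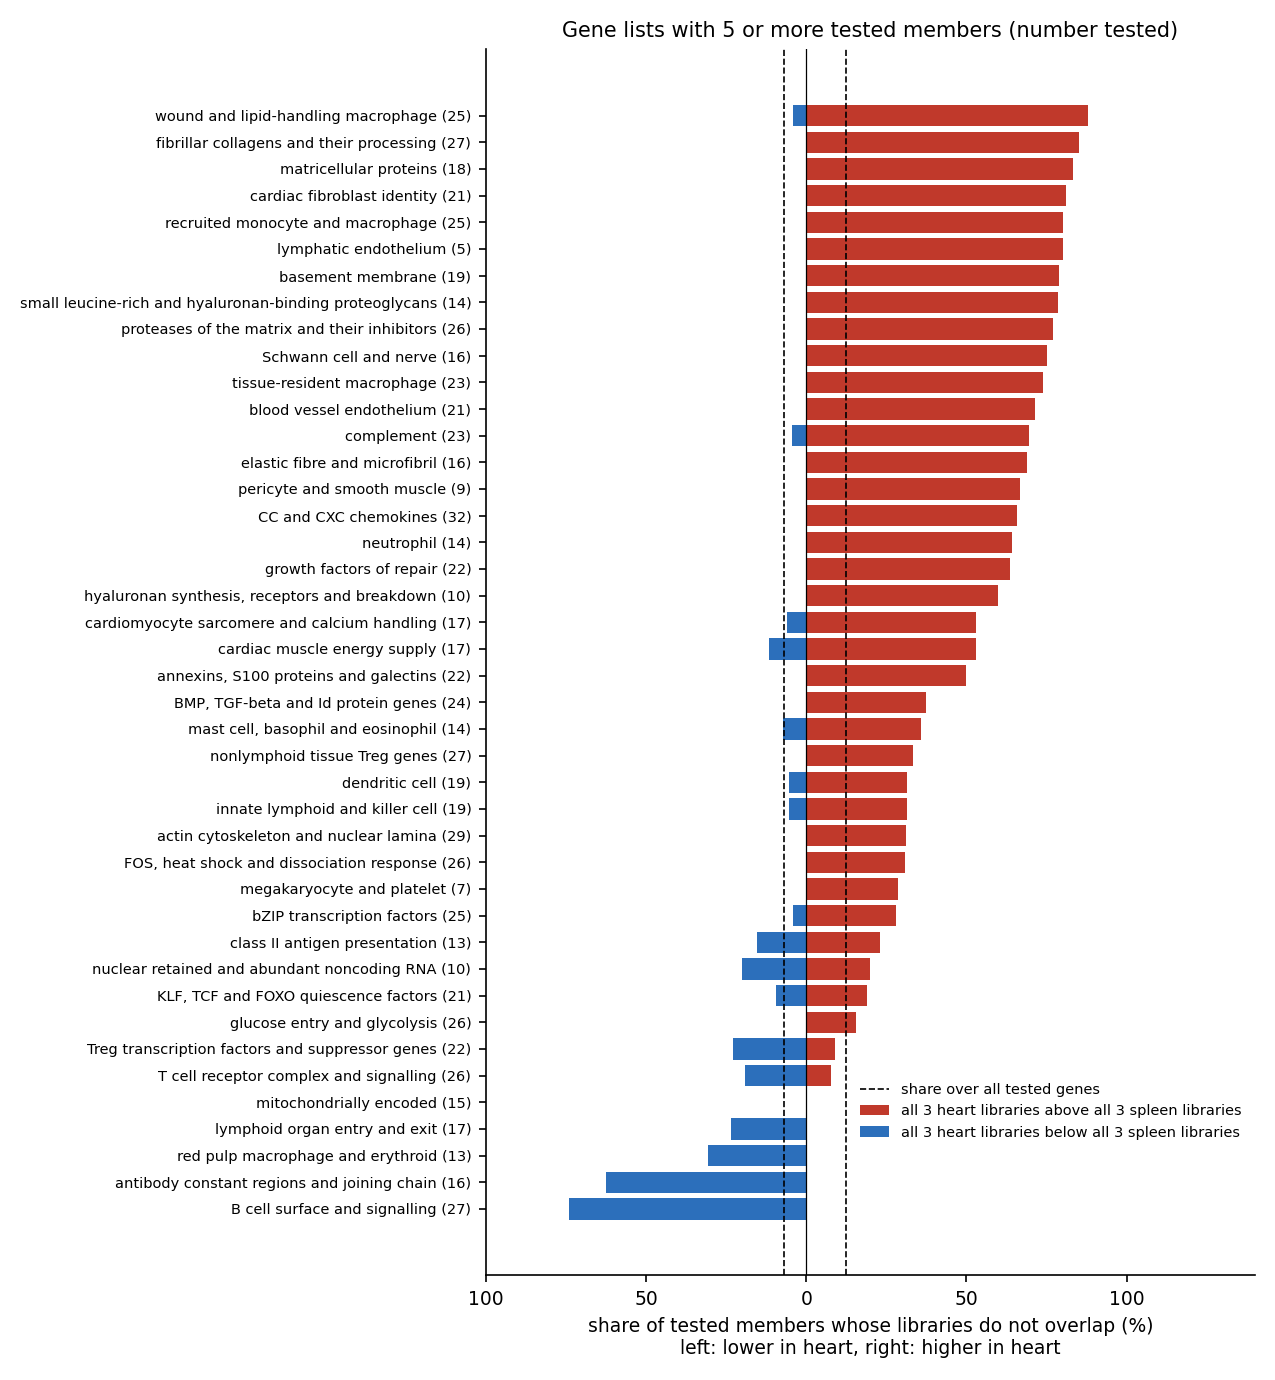
Share of tested members of each gene list in which all 3 heart libraries lie above (right) or below (left) all 3 spleen libraries, in percent, with the number tested in brackets and the shares over all tested genes (12.4% and 6.9%) as dashed lines. Matrix, macrophage, vessel and chemokine lists extend to the right, and B cell and antibody lists to the left, while the T cell receptor and Treg lists stay nearer to the dashed lines.

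Most B cell genes lay below the spleen. Of 27 genes, all tested, 2 fell, 0 rose and 20 lay wholly below the spleen (median log2 -4.95). Over all tested genes 0.175% were called lower and 6.9% lay wholly below. Blk, a kinase of the B cell receptor, was at 18.3, 78.4 and 64.6 CPM in the spleen and had no count in the heart (at least 3806-fold lower, edgeR adjusted p = 0.0256). Fcmr, the IgM receptor, was at 0.774, 0.0719 and 0 CPM in the heart and 358, 327 and 262 CPM in the spleen, and Bank1, a B cell scaffold protein, at 63, 0.411 and 0 against 548, 927 and 484 CPM, not called (edgeR adjusted p = 0.0664 and 0.417). MLN libraries also held B cell transcripts, with Cd79a at 189.8, 110.2 and 974 CPM. The list sums to 166 to 420.4 CPM in the heart and 2884 to 3432 CPM in the spleen.

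Antibody genes are made by B cells and, in large amounts, by plasma cells. Of 16 constant region and joining genes tested, 4 fell and 10 lay wholly below the spleen (median log2 -7.41), and their sum was 119 to 356 CPM in the heart and 10968 to 22614 CPM in the spleen. Ighm, the IgM heavy chain, was at 45.3, 125 and 64.4 CPM in the heart libraries and 2636, 3852 and 3330.0 CPM in the spleen libraries (log2 -5.39, SE 0.50, edgeR adjusted p = 0.0238; ENSMUSG00000076617, chromosome 12, 113418558 to 113422730). The lambda light chain genes Iglc1 (0.00561, 0.0279 and 0.00452 against 64.9, 78.9 and 75.2 CPM), Iglc2 (0, 0.164 and 0 against 461, 473 and 309 CPM) and the variable segment Iglv1 (0.0112, 0.0599 and 0.493 against 111, 194 and 106 CPM) were called as well (edgeR adjusted p = 0.0238, 0.0444 and 0.0398), though their near-identical copies make the split of reads uncertain. No fold is given for Iglc1 and Iglv1, since 1 heart library moves it. The log2 difference of Iglc1 went from -12.38 to -13.67 without heart library 2, and that of Iglv1 from -9.50 to -11.86 without the library labelled heart 3 Treg. Ighg2b was at 3.25, 2.53 and 8.06 CPM in the spleen, had no heart count, and was at 42.9, 151 and 108 CPM in the MLN (edgeR adjusted p = 0.0238). Ighg1 rested on 1 library: it was at 0.63, 0.562 and 6530.1 CPM in the spleen and 0.118, 0.611 and 0 CPM in the heart. The joining chain Jchain of secreted antibody was at 0, 0.97 and 80.9 against 2070.4, 7854 and 1008 CPM, highest for the heart in the library labelled heart 3 Treg (edgeR adjusted p = 0.301). Haemoglobin transcripts also lay below the spleen, as for Hbb-bs above, with Hba-a1 at 1.54, 1.41 and 0.556 against 45.6, 29.8 and 5.03 CPM. Of 13 red pulp and erythroid genes tested edgeR called 0, with 4 at an unadjusted p under 0.05, 4 lower called by DESeq2 and 0 by limma-voom. Among these 13 genes 4 lay wholly below the spleen and 9 overlapped. The list summed to similar levels, 252 to 457 CPM in the heart and 236 to 408 CPM in the spleen.

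Further genes without heart counts included Scg5, a chaperone of secretory granules, at 28.3, 32.3 and 21.1 CPM in the spleen and 73.8, 12.8 and 109 CPM in the MLN (at least 1929-fold lower in the heart, edgeR adjusted p = 0.0238). Prg2, the eosinophil major basic protein, was at 7.9, 25.6 and 14 CPM against none (edgeR adjusted p = 0.0256). Ell3, an elongation factor of B cells and testis, was at 14.6, 6.83 and 4.23 CPM (edgeR adjusted p = 0.0452), and Chst3, a chondroitin sulfotransferase, at 6.03, 1.06 and 7.13 CPM (edgeR adjusted p = 0.0492). Oosp1, known from oocytes, was called at 6.56, 58.3 and 24.5 CPM (edgeR adjusted p = 0.0374), and Upk1a, a uroplakin of bladder, at 2.55, 9.61 and 2.87 CPM (edgeR adjusted p = 0.0398). The kappa segment Igkv6-23 was at 18.6, 6.95 and 4.84 CPM (edgeR adjusted p = 0.0238). Each of these 7 was also counted in the MLN.

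In the 3 T cell lists 1 of 75 tested genes was called (1.33%), against 0.789% of all tested genes. Of 26 genes of the T cell receptor and its signalling edgeR called 0, with 8 at an unadjusted p under 0.05, 2 lower called by DESeq2 and 1 lower by limma-voom. In this list 2 lay wholly above and 5 wholly below the spleen, against 12.4% and 6.9% of all tested genes, and the median log2 difference was -0.86. The summed level of this list, given above, and that of the Treg list, 2653 to 3186 CPM in the heart and 4668 to 5605 CPM in the spleen, were lower in each heart library than in any spleen library. The edgeR adjusted p of Cd3e, given above, was 0.0814, and the adhesion receptor Cd2 was at 1424, 689 and 591 against 1523, 2301 and 1478 CPM (edgeR adjusted p = 0.352) and the adaptor Trat1 at 744, 109 and 495 against 1356, 2332 and 346 CPM. Among 22 Treg genes, Ikzf2 was the only call, and 5 lay wholly below and 2 wholly above the spleen (median log2 -0.65). Izumo1r, the folate receptor of Tregs, was at 23.2, 49 and 17.6 against 139.6, 178 and 288 CPM and missed the threshold (edgeR adjusted p = 0.0585). Il10, the suppressive cytokine, was wholly above the spleen, at 688, 315 and 341 against 97.1, 197 and 171 CPM (edgeR adjusted p = 0.322). The inhibitory receptor Tigit (519, 589 and 785 against 824, 878 and 480.0 CPM) and the costimulatory receptor Tnfrsf4 (365, 184 and 305 against 452, 546 and 229.7 CPM) overlapped.

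Genes linked to Tregs of nonlymphoid tissue gave 0 edgeR calls among 27, with 6 at an unadjusted p under 0.05, 2 higher called by limma-voom and 6 higher by DESeq2. Of them 9 lay wholly above and 0 below the spleen (median log2 0.62), against 12.4% and 6.9% of all tested genes. Il1rl1 was at 51.2, 51.6 and 39.2 against 9.69, 4.74 and 5.48 CPM (edgeR adjusted p = 0.0651) and Icos, a costimulatory receptor, at 2156, 1338 and 1168 against 536, 535 and 366 CPM (edgeR adjusted p = 0.144). Rora, a nuclear receptor of tissue Tregs and innate lymphoid cells, was at 463, 1122 and 541 against 55.7, 209 and 87.7 CPM (edgeR adjusted p = 0.135). These 3 did not overlap, while Batf, a factor needed by tissue Tregs, did, at 381, 404 and 384 against 418, 664 and 377 CPM. Several list members are shared with innate lymphoid and killer cells, Il1rl1, Rora and Gzmb among them, and that list summed to 2998 to 5342 CPM in the heart and 913 to 2636 CPM in the spleen. Samsn1, an adaptor of lymphocytes, was at 4416, 2110.4 and 4215 against 2014, 2041 and 877 CPM. In the list for entry into and exit from lymphoid organs edgeR called 0 of 17, with 3 at an unadjusted p under 0.05, 2 lower called by limma-voom and 1 lower by DESeq2. Of these 17 genes 4 lay wholly below the spleen, against 6.9% of all tested genes. Ccr7 was at 38.4, 479 and 134 against 1133, 879 and 1450.0 CPM, apart between the organs (edgeR adjusted p = 0.209). The egress receptor S1pr1 overlapped, at 21.4, 41.2 and 50.7 against 36.9, 61.7 and 81.8 CPM.

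In 3 lists of regulators of transcription 1 of 70 tested genes was called (1.43%, against 0.789% of all tested genes). The BMP, TGF-beta and Id list had 1 call among 24, Id3, while Id2, its paralogue, overlapped at 1048, 296 and 512 against 226, 466 and 114 CPM (edgeR adjusted p = 0.511). Of 25 basic leucine zipper factors edgeR called 0, with 5 at an unadjusted p under 0.05, 3 higher and 1 lower called by DESeq2 and 3 higher by limma-voom. Of them 7 lay wholly above and 1 wholly below the spleen, against 12.4% and 6.9% of all tested genes. The stress factor Atf3 was at 1312, 1313 and 1051 against 18.1, 175 and 486 CPM (edgeR adjusted p = 0.273). Nfe2l2, which encodes the oxidative stress regulator NRF2, was at 108, 46.3 and 51 against 8.08, 9.25 and 11 CPM (edgeR adjusted p = 0.0651). The repressor Bach2, which holds T cells in a resting state, was at 1.47, 2.29 and 1.95 against 17.2, 7.45 and 33.1 CPM (edgeR adjusted p = 0.216). KLF, TCF and FOXO factors of resting T cells gave 0 edgeR calls among 21, with 3 at an unadjusted p under 0.05, 1 higher and 1 lower called by DESeq2 and 1 higher and 1 lower by limma-voom. They had a median log2 difference of 0.15, which turned to -0.03 and -0.09 under upper quartile scaling and library totals. Klf2, which drives S1pr1, was at 51.4, 46.2 and 55 against 66.4, 70.7 and 132 CPM, all heart libraries below the spleen. Besides the genes named under their clusters, Il10, Il1rl1, Nfe2l2, Bach2, Klf2, S1pr1, Cd5l, Cd68, Mgp, Ccl4 and Cxcl14 are not given by the naming rule and were picked with their values in view.

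Growth factors of repair, secreted proteins that act on fibroblasts, vessels and epithelium, gave 0 edgeR calls among 22, with 11 at an unadjusted p under 0.05, 9 higher and 1 lower called by DESeq2 and 8 higher by limma-voom. In 14 of them all heart libraries lay above the spleen (median log2 3.74). Areg, the EGF receptor ligand amphiregulin known from repair by tissue Tregs, was at 104, 132 and 230.4 CPM in the heart and 61.5, 254 and 99.3 CPM in the spleen and overlapped (edgeR adjusted p = 0.992). Ptn, the heparin-binding factor pleiotrophin, was at 682, 59.4 and 51.5 CPM against none, with heart library 1 far above the others (edgeR adjusted p = 0.0704). Ogn, the matrix proteoglycan osteoglycin, was at 842, 55.6 and 136 against 0, 5.31 and 0.207 CPM, also highest in heart library 1 (edgeR adjusted p = 0.178).

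Class II molecules present peptides to CD4 T cells, and 8 of 13 of these genes overlapped between the organs. Of 13 genes edgeR called 0, with 4 at an unadjusted p under 0.05, 2 higher called by DESeq2 and 1 higher by limma-voom, and the median log2 difference was -0.12. Cd74, the invariant chain, was at 3052, 5769 and 6132 CPM in the heart and 6327, 10072 and 4953 CPM in the spleen, and H2-Eb1, a class II beta chain, at 1281, 3306 and 2405 and 1020.5, 2412 and 1766 CPM. Both overlapped, and both are known from B cells, dendritic cells and macrophages. The dendritic cell list summed to 335 to 1101 CPM in the heart and 1002 to 1849 CPM in the spleen, where Ccr7, a member that T cells also make, held most of the sum. Of its 19 genes 6 lay wholly above and 1 wholly below the spleen (median log2 2.10), against 12.4% and 6.9% of all tested genes. The plasmacytoid marker Siglech was at 4.26, 2.75 and 7.6 against 0, 0 and 0.968 CPM and was not called (edgeR adjusted p = 0.717). The other dendritic cell marker, Xcr1, overlapped, at 3.08, 8.4 and 0.556 against 3.74, 0 and 1.95 CPM (edgeR adjusted p = 0.96). Of 14 mast cell, basophil and eosinophil genes tested, 5 lay wholly above the spleen, 1 wholly below and 8 overlapped, and the only call was Prg2, the lower one given above. The mast cell chymase Cma1 was at 1116, 578 and 8.47 against 0.116, 0.694 and 0.0415 CPM, low in the library labelled heart 3 Treg, and was not called (edgeR adjusted p = 0.0731).

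In 5 lists of cell structure, metabolism and handling 5 of 118 tested genes were called (4.24%, against 0.789% of all tested genes), all higher. Annexins, S100 proteins and galectins had 1 call among 22, S100a16 (36.3, 23.7 and 19.6 CPM against none, edgeR adjusted p = 0.0444), and 11 lay wholly above the spleen. S100a11 was at 7988, 1400.4 and 6965 against 1223, 1677 and 318 CPM and Lgals1 at 6893, 1526 and 4214 against 1910.0, 1736 and 287 CPM, both with heart library 2 below at least 1 spleen library. Vim and Ahnak were the only calls among 29 cytoskeletal genes, and Actb (2136, 2656 and 1332 against 1168, 1895 and 1616 CPM) and Cfl1 (1337, 1818 and 1369 against 1473, 2068 and 1284 CPM) overlapped. In glycolysis Hk2 was the only call of 26, and the enzymes Ldha (225, 893 and 532 against 826, 401 and 767 CPM) and Pkm (85.5, 774 and 115 against 58.7, 112 and 620.2 CPM) overlapped. Of 26 immediate early and heat shock genes, which answer many kinds of stress, 1 was called, Hspa1b (7.55, 8.08 and 1.87 CPM against none, edgeR adjusted p = 0.0475), a gene with a near-identical copy, while Junb (43, 801 and 60.8 against 86.8, 202 and 788 CPM) and Hspa8 (889.8, 833 and 496 against 471, 352 and 889 CPM) overlapped. Among 15 mitochondrially encoded genes edgeR, limma-voom and DESeq2 each called 0, 0 had an unadjusted p under 0.05 and 0 were free of overlap. The cytochrome oxidase subunit mt-Co1 was at 1775, 856 and 2953 against 1989.8, 1578 and 728 CPM.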

How the data were processed

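RNA of Tregs sorted from heart, spleen and MLN 3 days after I/R was sequenced in 3 libraries each. Raw counts of reads for 49510 genes were deposited by the authors as 1 table, and all 9 columns were used. Per the submitters' processing notes, CASAVA 1.8.2, HISAT2, HTSeq 0.6.0 and build mm10 were used. The annotation, strand setting and treatment of multiply mapped reads were not given in the sources used. Gene positions are from GENCODE vM21 (mm10), and 49412 identifiers matched it. As deposited, 26 symbols had been turned into dates, and names were taken from the identifiers.

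Counts were tested with edgeR 4.0.16 in R 4.3.3 (TMM factors, quasi-likelihood F-test, Benjamini-Hochberg adjustment over 16609 genes). Genes with low counts were removed (filterByExpr, minimum count 10, minimum total 15). The fit used all 9 libraries, with heart minus spleen as the contrast and 6 residual degrees of freedom, and a gene was called at an adjusted p under 0.05. CPM values use TMM-scaled totals. An organ without a count was set at 3 counts per library for a lower bound of the fold. No replicate libraries agreed within sampling noise. Sample groups come from the labels. With 3 libraries against 3 an exact permutation test cannot go below p = 0.1, so none was used. The test was also run on simulated data. The outcome of that run is not given here, so it lends no weight to the calls.

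The members and gene lists were chosen with earlier results of these data known, so list counts and medians are descriptions. Genes were named by rule: up to 24 called genes with counts in all 6 libraries, by adjusted p, up to 10 per direction without counts in 1 organ, by level, called and highest uncalled members of each of 43 lists, uncalled genes whose libraries did not overlap, and cell type markers. Exceptions are stated, and some genes that the rule gives are not reported here. Genes known only by clone or model names were counted and not named. Alternatives were other scalings, DESeq2 1.42.0, limma-voom (limma 3.58.1) with and without sample weights, other filters, heart and spleen alone, a replicate block, and leaving out each library. Promoter letters are from RefSeq (GRCm38.p6), and for Cxcl2 the window ends before the GENCODE start. Plots were drawn with matplotlib 3.10.9.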

Additional observations from a re-analysis of the deposited data

How the results depend on the processing

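Against 131 genes (102 higher, 29 lower), DESeq2 called 2415 (1704 and 711), limma-voom 1141 (957 and 184), limma-voom with sample weights 1148 (998 and 150), and edgeR on heart and spleen alone 292, of which 271 were higher. Library totals without scaling gave 63 higher genes. Leaving out 1 library at a time gave 0 to 122 calls, 0 to 104 higher and 0 to 18 lower. The cause of these shifts was not tested. RLE scaling (138), upper quartile scaling (115), no filter (118) and a minimum count of 50 (147) stayed within 1.5 times. Every called gene that could be fitted kept its direction in all 19 alternatives. As no called gene overlapped between the organs, leaving out 1 library could hardly change that.

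Genes whose libraries did not overlap split 2058 higher to 1146 lower with TMM, 2143 to 1051 with RLE, 1820 to 1446 with upper quartile factors and 1723 to 1632 with library totals. The median log2 difference of all genes was 0.02, 0.08, -0.17 and -0.24 in that order.

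Same-numbered libraries did not deviate together (correlations from -0.127 to 0.114). With so wide a spread between libraries this cannot show whether a number marks shared animals, and the labels do not say. With a replicate block 0 genes were called in total, 0 higher and 0 lower, with 1780 at an unadjusted p under 0.05 and a lowest edgeR adjusted p of 0.128.

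Of 231 genes named by rule, 69 were called and passed in 5 to 14 of the alternatives. Of the 162 others, 83 passed in at least 1 alternative and 26 changed sign in at least 1. Folds against an organ without counts are bounds set by depth, and medians of lists with such genes rest on them.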

Other observations

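Several other genes separated the organs without a call. Fth1 and Ftl1 encode the heavy and light chains of the iron store ferritin. Both are in the list of genes of macrophages that clear debris and handle lipid. Fth1 was at 14431, 6285 and 13652 CPM in heart libraries 1 to 3 and 2169, 3096 and 1449 CPM in the spleen libraries (edgeR adjusted p = 0.0609). Ftl1 was at 4602, 1627 and 2659 against 1060.5, 1295 and 755 CPM (edgeR adjusted p = 0.142). MLN levels of Fth1, 1887, 1878 and 1494 CPM, were close to those of the spleen. Meox2, a homeobox factor of capillary endothelium, was at 39.1, 151 and 23.5 CPM in the heart with no count in the spleen or MLN (edgeR adjusted p = 0.0504). Ptprz1, a receptor phosphatase of glia, had no count there either and was at 22.9, 19.5 and 15.9 CPM in the heart (edgeR adjusted p = 0.0504). Both lie just outside the threshold of 0.05.

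Below the spleen, Immp2l, a peptidase of the inner mitochondrial membrane, was at 923, 692 and 956 CPM in the heart libraries and 2797, 4550.4 and 1998 CPM in the spleen libraries (edgeR adjusted p = 0.0984). The ribosomal stalk gene Rplp0 was at 1670.3, 1305 and 1240.4 against 2795, 2349 and 1949 CPM and the translation factor gene Eif3h at 2229, 2448 and 1856 against 3832, 3026 and 3183 CPM, with MLN libraries at 4181, 3405 and 3479 CPM for Eif3h (edgeR adjusted p = 0.324 and 0.394). Ndfip1, an adaptor of ubiquitin ligases that limits T cell activation, was at 2949, 3092 and 2239 against 3259, 4425 and 4037 CPM (edgeR adjusted p = 0.766). The T cell receptor segment Trav12-1 had no heart count and was at 1.04, 1.94 and 1.39 CPM in the spleen and 1.53, 1.64 and 1.54 CPM in the MLN (edgeR adjusted p = 0.0537).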
